A study of Caenorhabditis elegans with 4 samples.

Results

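The regions described here are the long stretches of the C. elegans genome in which neither of 2 H3K4me3 ChIP-seq replicates had a peak. The peaks of both lists were pooled, overlapping peaks were merged within each chromosome, and every interval between consecutive merged peaks that spanned 60000 bp or more was taken. This gave 318 long stretches among 3891 intervals, and the other 3573 intervals are called shorter intervals below. The stretches were chosen by peak positions alone, so the number, the lengths and the absence of peaks are descriptions and not results. The LEM-2 annotation was not used in the choice. Intervals of 1 genome are not replicates of a condition, and no test was run over them: values are given with those of each replicate list alone.

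Chromatin came from embryos of all stages, collected from the wild-type N2 strain with no mutation, transgene or treatment. It was immunoprecipitated with a mouse monoclonal antibody against H3K4me3 in 2 biological replicates. The series also holds 2 input libraries, which were not used here. Mixed-stage embryos hold many cell types and ages, so a stretch without a peak could still carry the mark in a few cells. The first replicate is described by the study as the more deeply sequenced library, and no read depth is recorded in the peak lists.

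H3K4me3, trimethylation of lysine 4 of histone H3, is laid down around the start of actively transcribed genes and is used across eukaryotes as a mark of active promoters. LEM-2 is a protein of the inner nuclear membrane, and its ChIP signal marks chromatin near the nuclear periphery. The study divided each chromosome into LEM-2 subdomains, which are stretches bound by LEM-2, and the gaps between them, sorted by size into small, medium, large and extra large. The C. elegans autosomes have gene-dense centres flanked by arms that are richer in repeats and poorer in essential genes, whereas the X chromosome is organized differently from the autosomes.

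The replicate lists held 3811 peaks (replicate 1) and 3487 peaks (replicate 2), which merged into 3897 peaks covering 11.6 Mb. The 318 long stretches were 8.17% of the intervals and held 32.9 Mb, or 37.3% of the 88.4 Mb between peaks. Their lengths ran from 60019 to 547351 bp with a median of 82769 bp, against a median of 10535 bp for the shorter intervals. Of the 318 stretches, 102 were 100 kb or longer and 19 were 200 kb or longer. With the list of replicate 1 alone there were 325 long stretches holding 33.9 Mb, and with the list of replicate 2 alone 380 holding 39.4 Mb (mean number 352.5 ± 38.9, SD, n = 2). The minimum length sets the number: at 40 kb there were 631 stretches and at 100 kb 102.

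The stretches nearest to the limit had subdomain shares from 0% to 100% on either side. Just above it lay chromosome V 12499591-12559609 (60019 bp, centre, 0% of bases in a LEM-2 subdomain), chromosome III 12274982-12335078 (60097 bp, right arm, 100%) and chromosome X 3544115-3604347 (60233 bp, left arm, 0%). Just below it lay chromosome X 9348397-9408333 (59937 bp, centre, 0%), chromosome I 4383369-4443224 (59856 bp, left arm, 77.5%) and chromosome I 14899746-14959543 (59798 bp, right arm, 100%). Coordinates are 1-based and taken to be on ce4, the build to which the study aligned its reads, since the lists name no build. The ends of the chromosomes beyond the outermost peaks are not intervals between peaks. Only 1 of these 12 ends was 60 kb or longer (71170 bp, at the right end of V), and the shortest was 2980 bp.

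Most of the long stretches were found in both lists. Of the 318, 209 (65.7%) had a length within 1000 bp of the pooled length in each list alone. In the list of replicate 1, 25 of the 325 long stretches (7.69%) were interrupted by a total of 26 peaks called only in replicate 2. Those 26 peaks had a median score of 67.74 (score, 10 times the negative log10 of the MACS p-value), against 607.19 for all peaks of replicate 2. In the list of replicate 2, 127 of the 380 long stretches (33.4%) were interrupted by 176 peaks called only in replicate 1, with a median score of 107.74 against 1612.49 for all peaks of that list. In both directions the interrupting peaks had a median score far below that of their list. Counted in bases, 97.6% of the long stretches of replicate 1 lay in long stretches of replicate 2, and 83.9% of those of replicate 2 lay in long stretches of replicate 1.

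The long stretches were spread over all 6 chromosomes, and chromosome V held the most. There were 87 on V, 66 on X, 62 on IV, 47 on II, 31 on I and 25 on III. As a share of the chromosome they took 52.9% of V, 38.2% of IV, 34.1% of X, 27.2% of II, 18.4% of I and 16.0% of III. Their midpoints lay in a chromosome arm for 228 of 318 stretches (71.7%), against 1622 of 3573 shorter intervals (45.4%), and 47.5% of all intervals did so. With single lists the share of long stretches in arms was 71.4% in replicate 1 and 68.9% in replicate 2.

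Autosomal arms, autosomal centres and the X chromosome differed in how much of their length was peak-free over long distances. Long stretches covered 43.5% of the autosomal arms (44.6% and 49.8% with replicate 1 and replicate 2 alone) and 12.6% of the autosomal centres (13.1% and 17.9%). The single-list values of the arms and centres did not overlap. On every autosome both arms had a larger share than the centre, and the arms together ranged from 23.1% on III to 64.7% on V. The X centre was above the autosomal centres in this measure: 31.3% of it lay in long stretches (32.0% and 40.1% in the single lists), against 5.47% to 21.1% in the autosomal centres. The left and right arms of X had 37.1% and 44.7%. Long stretches in the autosomal arms had a median length of 90534 bp (n = 204), those in the autosomal centres 74932.5 bp (n = 48) and those on X 81223.5 bp (n = 66). All 17 autosomal stretches of 200 kb or more were in arms.

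**Figure D1:**
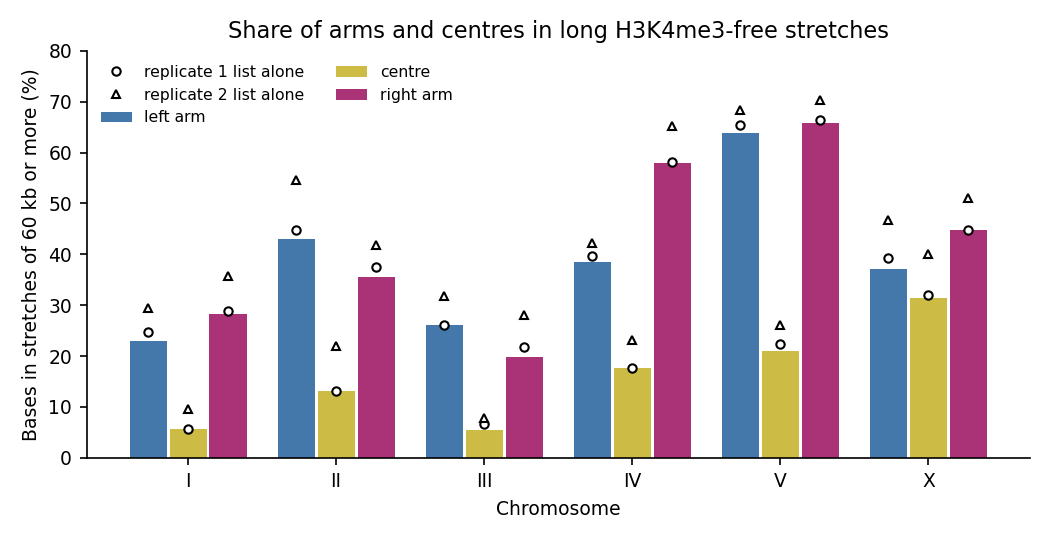
Share of each chromosome's left arm, centre and right arm, in percent of bases, that lay in stretches of 60 kb or more without an H3K4me3 peak. Bars are the pooled lists, circles the list of replicate 1 alone and triangles that of replicate 2 alone. The arms of V reached 63.8% and 65.7%, and the centre of X (31.3%) was above all 5 autosomal centres.

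Long stretches lay mainly in LEM-2 subdomains. Subdomains made up 73.0% of the bases of the long stretches and 40.0% of those of the shorter intervals, a difference of 33.0 percentage points. With single lists the difference was 33.3 points in replicate 1 and 31.4 points in replicate 2 (mean 32.3 ± 1.32, SD, n = 2), so it was many times the spread between the lists. Counted by stretch, 215 of 318 (67.6%) had at least 50% of their bases in a subdomain, against 1127 of 3573 shorter intervals (31.5%), and 34.5% of all intervals did. Stretches that lay wholly in a subdomain numbered 129 (40.6%), against 937 shorter intervals (26.2%), with 27.4% over all intervals. Those with no base in a subdomain numbered 87 (27.4%), against 2395 shorter intervals (67.0%), with 63.8% over all intervals. An interval can have no subdomain base only inside a gap at least as long as itself, so length enters this count. The remaining 102 long stretches were partly in a subdomain.

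Because arms hold most of the LEM-2 subdomains and also most of the long stretches, the comparison was made within arms and centres. In the arms of all 6 chromosomes, 91.1% of the bases of long stretches were in subdomains, against 77.4% for shorter intervals. This difference of 13.7 points (13.8 and 13.4 in the single lists, mean 13.6 ± 0.287, SD, n = 2) was smaller than that over the whole genome. It was positive on 6 of 6 chromosomes in the pooled lists, running from 5.11 points on II to 29.0 points on V. It was also positive on 6 of 6 chromosomes with replicate 1 alone (5.61 to 30.1) and with replicate 2 alone (1.22 to 33.9). When the percentages of the intervals were averaged instead of their bases summed, the difference in arms was 21.6 points.

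The autosomal arms, the autosomal centres and X each showed a higher subdomain content in the long stretches. In the autosomal arms it was 95.0% for long stretches and 82.0% for shorter intervals (difference 13.0 points, 13.4 and 14.1 in the single lists). In the autosomal centres, where LEM-2 subdomains make up 2.10% of all bases, it was 8.41% for long stretches and 1.31% for shorter intervals (difference 7.09 points, 6.80 and 7.17 in the single lists). That value rested on 7 of the 48 stretches, since the other 41 had no subdomain base, and 4 stretches of IV held 181 of the 310 kb in subdomains. In the pooled lists the centres of I and III had no subdomain base in their 4 long stretches each, against 1.07% and 0.40% in their shorter intervals. The direction for I changed with the list: it was also negative in replicate 1 alone (-1.07 points), but in replicate 2 alone 7 long stretches had 6.79% of their bases in subdomains, against 0.21% in shorter intervals. For III the difference was negative in all lists. On X it was 27.7% for long stretches and 13.5% for shorter intervals (difference 14.2 points, 13.7 and 10.6 in the single lists).

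Within X the differences varied more between the lists. In the left arm of X, the part of that chromosome with most LEM-2, subdomains made up 68.8% of the bases of 15 long stretches and 49.4% of those of shorter intervals, and the difference of 19.4 points was 15.5 points in replicate 1 and 7.43 points in replicate 2. In the X centre the values were 11.3% for 42 long stretches and 1.64% for shorter intervals, a difference of 9.63 points (9.38 and 8.79 in the single lists). Only 8 of the 42 stretches had a base in a subdomain. The 7 long stretches between X 11728154 and 12851796, which had shorter intervals between them, held 371 of the 413 kb, or 89.7%. In the right arm of X they were 26.1% for 9 long stretches and 18.4% for shorter intervals. That difference of 7.61 points was 7.67 points in replicate 1 and 2.30 points in replicate 2, and its mean of 4.98 points was close to its SD of 3.80 points.

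Inside the autosomal arms, long stretches were seldom outside LEM-2 altogether. Only 3 of 204 (1.47%) had no base in a subdomain, against 24.2% of the shorter intervals there, and 197 (96.6%) had at least 50% of their bases in one, against 73.1%. The share lying wholly in a subdomain was not higher: 124 of 204 long stretches (60.8%) did so, against 62.7% of shorter intervals. A longer interval has more chances to meet a subdomain edge. A stretch of 60 kb or more can also miss every subdomain only inside a gap at least that long, whereas a shorter interval fits in smaller gaps. The part that length played in these counts was not tested.

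**Figure D2:**
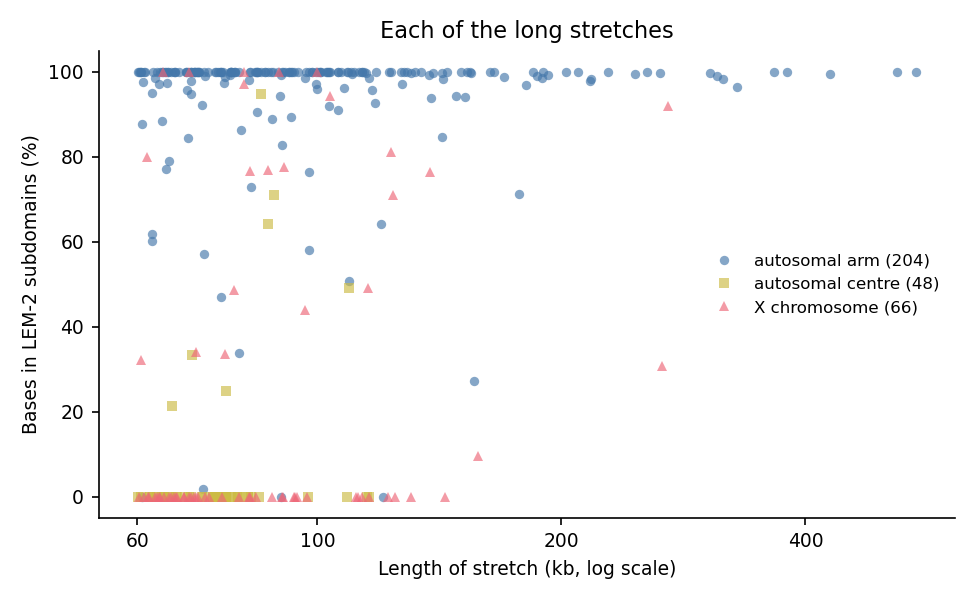
Each of the 318 long stretches by its length (kb, log scale) and the percent of its bases in LEM-2 subdomains, coloured by autosomal arm (204), autosomal centre (48) or X chromosome (66). The 17 autosomal stretches of 200 kb or more lay at 96.5% or above, and 41 of the 48 autosomal-centre stretches and 43 of the 66 X stretches lay at 0%. Of the shorter intervals, which are not drawn, 99.0% in autosomal centres and 88.8% on X were at 0%.

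In the pooled lists LEM-2 content was higher in each longer class of intervals, including the classes below 60 kb. In the autosomal arms, intervals under 10 kb had 62.4% of their bases in subdomains, those of 10 to 30 kb 77.9%, those of 30 to 60 kb 88.7%, those of 60 to 100 kb 93.3% and those of 100 kb or more 96.2%. On X the same classes had 5.51%, 12.5%, 16.5%, 23.4% and 34.9%, the last from 16 intervals. In the autosomal centres they had 0.297%, 1.11%, 2.01%, 7.91% and 12.0%, the last from only 4 intervals. The order held in replicate 1 alone, and in replicate 2 alone with 1 exception, the centres, where the longest class had 6.63% (7 intervals) and the class below it 8.27%. In the autosomal arms most of the difference between classes lay below 60 kb. Among the 204 long stretches of the autosomal arms length and subdomain share were not positively related (Spearman rho across stretches -0.10), whereas over all 1652 intervals of those arms rho was 0.16. Of those 204 stretches, 124 were tied at 100%, which limits what rho can show. Among all 318 long stretches rho was 0.19, and among the 66 of X it was 0.24. These values describe neighbouring intervals of 1 genome, which are not independent.

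**Figure D3:**
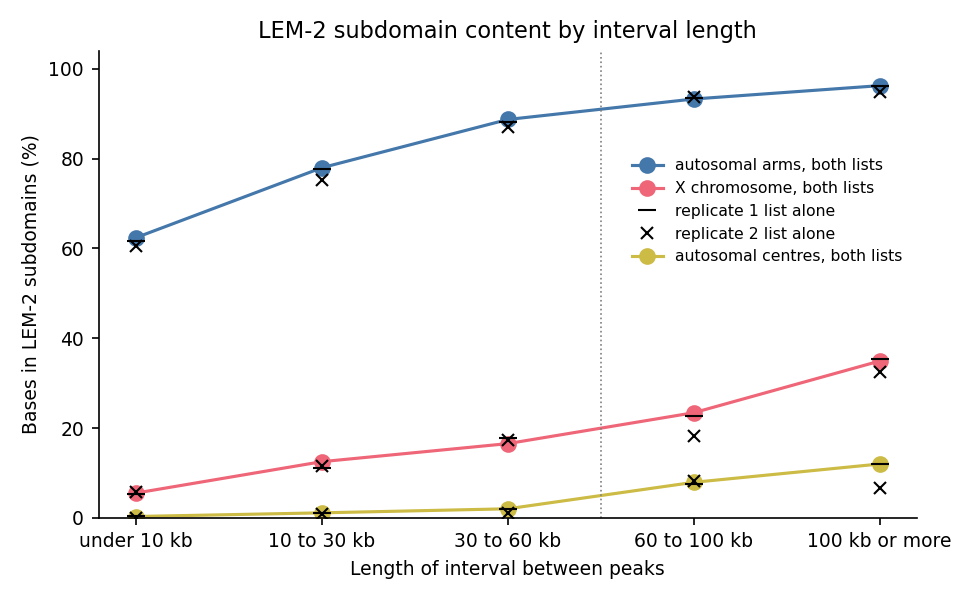
Percent of interval bases in LEM-2 subdomains for 5 classes of interval length (kb), in autosomal arms, autosomal centres and the X chromosome. Circles joined by lines are the pooled lists, dashes the list of replicate 1 and crosses that of replicate 2, and the dotted line is the 60 kb limit. In the autosomal arms the share was 62.4% in the shortest class and 96.2% in the longest.

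The longest stretches of the autosomes lay almost entirely in LEM-2 subdomains. The longest of all, on the right arm of V (16966698-17514048), was 547351 bp, and measured 547364 bp in replicate 1 alone and 547370 bp in replicate 2 alone. All of its bases were in 1 subdomain. That subdomain hosted 5 long stretches, and 93.2% of its bases lay in long stretches. The longest of IV, also in a right arm (15649082-16167792), was 518711 bp (518711 and 519478 bp in the single lists), with 99.98% of its bases in a subdomain. The longest of I (12208382-12425969, right arm) was 217588 bp with 98.3%, that of III (1226788-1416730, left arm) was 189943 bp with 100%, and that of II (3120119-3289907, left arm) was 169789 bp with 98.9%. These lengths differed by less than 1000 bp between the lists.

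Besides the longest stretch of V, the longest that lay wholly in 1 subdomain were also on V. At 18110319-18490288 on the right arm, 379970 bp were peak-free in the pooled lists and in replicate 1, and 445121 bp in replicate 2. At 357114-723072 on the left arm the lengths were 365959 bp in the pooled lists and in replicate 1, and 373812 bp in replicate 2. The peaks that bounded the right-arm stretch had scores of 81.85 and 98.69 in replicate 1 and were not called in replicate 2, so the stretch ran on to the next peaks in that list.

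On X the picture was mixed. The longest stretch of X (1529746-1800689, left arm) was 270944 bp, had 91.9% of its bases in subdomains and held 1 medium gap. The next longest (15866792-16132742, right arm) was 265951 bp and had only 30.7% of its bases in subdomains. The 3 longest stretches with no subdomain base were all in the X centre, at 13252568-13396202 (143635 bp, 166192 bp in replicate 2 alone), 6935396-7065886 (130491 bp, 130979 bp in replicate 2 alone) and 9511197-9635932 (124736 bp, 125880 bp in replicate 2 alone). Of the 87 long stretches with no subdomain base, 43 (49.4%) were on X, 41 in autosomal centres and 3 in autosomal arms. Lacking a subdomain base was not particular to long stretches there. On X 65.2% of long stretches and 88.8% of shorter intervals had none, and in autosomal centres 85.4% and 99.0%. By LEM-2 class, 75 of the 87 were in extra large gaps and 12 in large gaps.

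In the classes of gaps, the autosomal arms showed the difference in medium and large gaps. Medium gaps made up 2.70% of the bases of long stretches and 8.78% of those of shorter intervals, large gaps 1.71% and 7.25%, and small gaps 0.344% and 0.797%. On X, extra large gaps were 55.0% of the bases of long stretches and 65.6% of those of shorter intervals. In the autosomal centres extra large gaps were 80.4% and 90.5%.

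**Figure D4:**
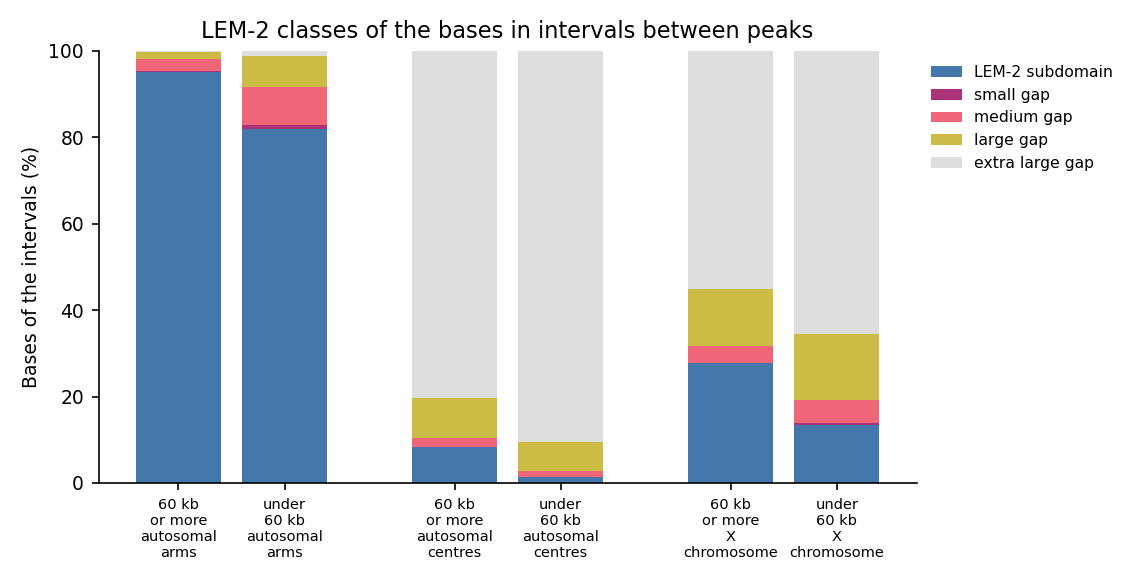
LEM-2 class of the bases, in percent, for intervals of 60 kb or more and under 60 kb, in autosomal arms, autosomal centres and the X chromosome, from the pooled lists. Each bar adds up the subdomain and the small, medium, large and extra large gap classes. In the autosomal arms the subdomain class reached 95.0% of the bases of long stretches and 82.0% of those of shorter intervals.

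Seen from the LEM-2 side, 48.4% of all subdomain bases (24.0 of 49.7 Mb) lay in long stretches, against 15.3% of small-gap bases, 18.3% of medium-gap bases, 20.9% of large-gap bases and 16.9% of extra-large-gap bases. Long stretches reached into 191 of 360 subdomains (53.1%) and took in 54 of them whole (15.0%). For gaps they reached into 43 of 162 small (26.5%), 71 of 147 medium (48.3%), 22 of 35 large (62.9%) and 10 of 10 extra large ones. They took in 25 small gaps (15.4%) and 9 medium gaps (6.12%) whole. These shares depend on size and are not comparable between gaps and subdomains. Of the subdomains under 60 kb, 36 of 184 (19.6%) were taken in whole, and of those of 60 kb or longer 18 of 176 (10.2%). Of the 79 subdomains of 200 kb or more, 70 contained part of a long stretch and none was free of peaks.

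A few long stretches ran across whole gaps, so that a break in LEM-2 had no H3K4me3 peak. There were 34 such gaps, 25 small and 9 medium, in 30 long stretches (9.43%), against 22 gaps in 22 shorter intervals (0.616%), and 1.34% of all intervals held at least 1. A longer interval has more room for a whole gap, so the rate per Mb is the closer comparison: 1.03 gaps per Mb of long stretch (1.00 and 1.07 in the single lists) and 0.397 per Mb of shorter interval. In the autosomal arms the rates were 1.03 and 0.678 per Mb. Per Mb of subdomain they were 1.09 in long stretches and 0.827 in shorter intervals of those arms. An interval of a few kb cannot hold a gap longer than itself, and this part of the difference in rates was not tested.

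Gaps without a peak were short for their class, in long stretches and in shorter intervals. The 25 small gaps had a median of 999 bp (101 to 7386 bp), against 2044 bp for the 21 small gaps held in shorter intervals and 3478.5 bp for the 116 that a peak touched. The 9 medium gaps had a median of 15299 bp (10714 to 66126 bp), against 15399 bp for the 1 medium gap held in a shorter interval and a median of 25771 bp for the 137 touched by a peak. A shorter gap has less room for a peak by its size alone. Of the gaps with no peak, 25 of 46 small ones and 9 of 10 medium ones were in long stretches. No large gap was held whole. By chromosome, 11 held gaps were on V, 10 on II, 8 on X, 3 on III, 2 on IV and 0 on I. These counts were not set against the number of gaps on each chromosome, so they do not compare the chromosomes.

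Of these stretches, 4 held a pair of gaps each, and the 3 longest of them are given here. The stretch on the right arm of V (14194740-14346714) was 151975 bp with 94.2% of its bases in 3 subdomains, and both its bounding peaks were in medium gaps. The one in the X centre (12518667-12634113) was 115447 bp with 49.1% in 3 subdomains, and its bounding peaks were in a large gap on either side. The one on the left arm of II (3378275-3481770) was 103496 bp with 92.0% in 3 subdomains, bounded by a peak in a small gap and a peak in a subdomain. In replicate 2 alone these lengths were 152101, 121899 and 103624 bp.

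The edges of long stretches in the autosomal arms were profiled against the subdomains. At the edge itself, 77.9% of the 408 edges were in a subdomain. Inside the stretch the share was 89.7% at 5 kb, 94.1% at 10 kb and 95.8% at 20 kb, and outside it was 73.8% at 5 kb and 85.3% at 20 kb (407 edges). The edges of intervals of 20 to 60 kb had 77.5% at the edge, 85.3% at 5 kb inside, 88.1% at 10 kb inside and 75.8% at 5 kb outside. For most edges of long stretches no subdomain edge was near. A subdomain edge lay within 5 kb of 114 of 408 long-stretch edges (27.9%), against 205 of 1022 edges of intervals of 20 to 60 kb (20.1%). In the single lists the shares were 28.0% against 20.2% in replicate 1 and 30.6% against 20.9% in replicate 2.

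**Figure D5:**
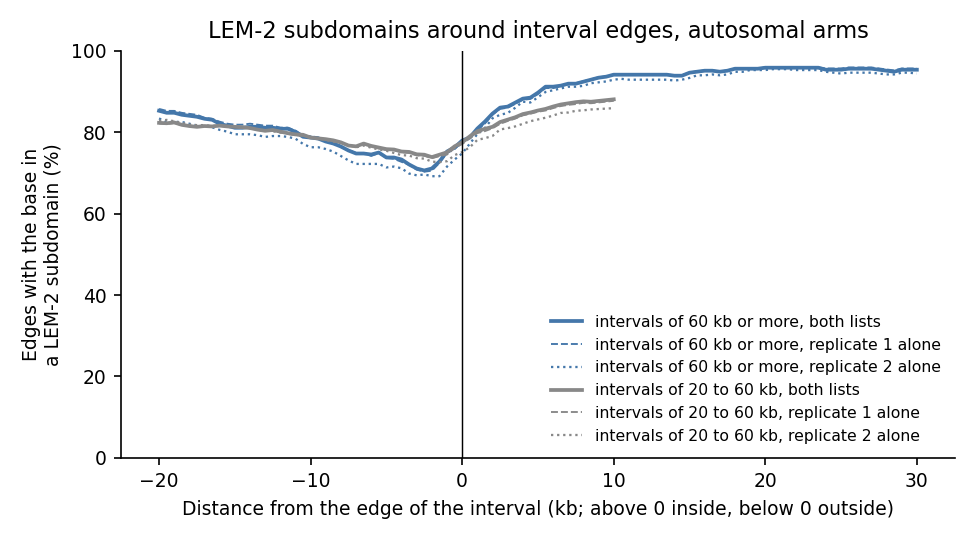
Percent of interval edges in the autosomal arms at which the base at a given distance (kb, above 0 inside the interval and below 0 outside) lay in a LEM-2 subdomain, for intervals of 60 kb or more and of 20 to 60 kb. Solid lines are the pooled lists, dashed lines replicate 1 and dotted lines replicate 2. Inside the long stretches the share reached 94.1% at 10 kb, and in the intervals of 20 to 60 kb it reached 88.1%.

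The 592 peaks that bounded long stretches were ordinary in size. Their median width was 2306 bp, against 2404 bp for the other merged peaks, and their median score was 1619.39 in replicate 1 and 614.81 in replicate 2, against 1619.21 and 629.78 for the others. Both lists held 85.0% of the bounding peaks and 83.9% of the others. Their positions differed more: 48.3% of the bounding peaks were centred in a LEM-2 subdomain, against 27.1% of the other peaks. Within the autosomal arms these shares were 72.4% and 66.7%.

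Of these, 44 merged peaks stood between a long stretch on either side. Their median width was 2233.5 bp and 36 of them were in both lists. LEM-2 gaps held the midpoints of 15 of the 44 (34.1%, exact 95% binomial interval 20.5 to 49.9%, for counting error only), against 70.0% of the other merged peaks. In the arms they were 9 of 38 (23.7%, interval 11.4 to 40.2%), against 670 of 1816 (36.9%, interval 34.7 to 39.2%). These intervals overlapped, but neighbouring peaks of 1 genome are not independent, so no conclusion is drawn from the overlap. The share depended on the list and the limit: it was 35.6% with replicate 1 alone and 46.6% with replicate 2 alone, and 10% of the 10 peaks left at a limit of 100 kb. The 3 peaks farthest from any other on both sides were all in subdomains. They lay on IV at 16167793-16171427 (flanks of 518711 and 209411 bp, score 1314.38 in replicate 1 and 747.87 in replicate 2), on V at 2876657-2878219 (180913 and 316077 bp, score 625.21 and 127.29) and on V at 16964441-16966697 (163103 and 547351 bp, score 3100 and 1087.02).

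Long stretches followed each other in rows on some chromosomes. Of the runs of consecutive long stretches, 239 were of 1 stretch, 29 of 2, 4 of 3, 1 of 4 and 1 of 5. Where long stretches are common, some will be neighbours by their share alone: the arms of V had 72 long stretches and 234 shorter intervals. Whether the runs exceeded what that share gives was not tested. The 6 runs of 3 or more were on IV (2 runs) and V (4 runs), the chromosomes with the largest share of their length in long stretches. These counts are of the pooled lists, and in some runs a peak called in only 1 list separated the stretches. Such peaks lay on V at 2254568-2256257 and 2421251-2422662, both called in replicate 1 only. In replicate 2 alone the stretches on either side of them were 1 stretch of 389014 bp. Reads from repeated sequence can fail to align uniquely and so leave no peak, and repeats are common on the arms. What part of the peak-free length this accounts for was not tested.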

How the data were processed

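H3K4me3 ChIP-seq of 2 biological replicates of mixed-stage N2 embryos was analysed from the deposited peak lists. The authors ran MACS on each replicate, with 1e-05 as the largest p-value allowed, and deposited for every peak a score, the negative log10 of its p-value multiplied by 10. The version of MACS and the genome build of the lists are not given in the sources used here. The submitters' processing notes name BWA, whereas the study's methods name MAQ and ce4 for its coverage profiles. The lists carry no read depth or signal. A fixed threshold can give fewer weak peaks in a shallower library, and the second replicate was the shallower one by the study's account. Whether depth made its intervals longer was not tested, and the spread between the lists includes any such effect.

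Peaks sharing at least 1 bp were merged. Intervals were intersected with the study's lists of 360 LEM-2 subdomains and 354 gaps, and placed in an arm or centre by their midpoint. A gap was held when it lay wholly in an interval. Subdomain shares were summed subdomain bases over summed interval bases. The named regions were the longest stretch of each chromosome, the 3 longest with no subdomain base, the 3 longest wholly inside 1 subdomain, the 3 holding most whole gaps, the 3 on either side of the limit and the 3 most isolated peaks between long stretches. The second longest stretch of X was named after its values were seen. The stretches, lists and measures were chosen with earlier results of these data known. Alternatives were each list alone, only peaks of replicate 1 shared with replicate 2, a score minimum of 100, merging across 1000 bp, limits of 40 and 100 kb, autosomes only, chromosome ends counted as intervals, only intervals wholly inside an arm (for the share in arms) and averaged percentages. Calculations ran in Python 3.11.15 with pandas 2.3.3, numpy 2.4.6 and scipy 1.17.1, figures were drawn with matplotlib 3.10.9, and the interval code was tested on simulated data.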

Additional observations from a re-analysis of the deposited data

How the results depend on the processing

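Of 66 alternative values of 7 results, 36 moved by less than the spread between the replicate lists (for the number of stretches, stayed within 1.5 times) and 30 moved further. The single-list values are among these alternatives and also set the spread, so these counts are not an independent measure of stability. Only the 2 differences could change sign, and 0 of their 20 alternatives did. With 1 list left out, the number of long stretches ranged over 325 to 380, their subdomain share over 69.4 to 72.8%, the difference from shorter intervals over 31.4 to 33.3 points and within arms over 13.4 to 13.8 points, the share in arms over 68.9 to 71.4%, whole gaps per Mb over 1.00 to 1.07, and the share of peaks between long stretches in gaps over 35.6 to 46.6%. A limit of 40 kb gave 631 stretches, 66.1% in subdomains, differences of 30.5 and within arms 14.9 points, 65.9% in arms, 0.912 gaps per Mb and 44.5% of peaks between long stretches in gaps. A limit of 100 kb gave 102 stretches, 85.5% in subdomains, a difference of 40.9 points, 86.3% in arms, 1.33 gaps per Mb and 10% of peaks between long stretches in gaps. On autosomes alone the values were 83.2% in subdomains, differences of 37.6 and within arms 13.0 points, 81.0% in arms, 0.967 gaps per Mb and 25.6% of peaks between long stretches in gaps. With only the peaks of replicate 1 that replicate 2 shared, 69.8% of bases were in subdomains, 69.1% of stretches in arms and 48.4% of the peaks between long stretches in gaps. A score minimum of 100 gave 1.08 gaps per Mb. Averaging the percentages of intervals gave differences of 35.5 and within arms 21.6 points. In arms, averaging gave 89.3% for long stretches and 67.6% for shorter intervals, against 91.1% and 77.4% in summed bases. Over all intervals it gave 66.5% and 31.0%, against 73.0% and 40.0%. The cause of these and the other changes was not tested. No paired analysis was possible because only the 2 H3K4me3 replicates had peak lists analysed here and no groups of samples were compared.

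The lists give no depth, so the absence of a peak is a statement about a threshold and not about the absence of the mark. With 2 lists the spread rests on 1 difference. The LEM-2 annotation was used as the study drew it, with no error of its own.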
